A study of Mus musculus with 4 samples.

Results

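The Clec genes are the mouse genes whose symbols begin with Clec and a number, for C-type lectin domain family. All array spots with such a gene name were taken, with control spots and the genes Clec4d, Clec4e and Clec16a left out. This gave 29 genes with 36 probes, 1 spot each, out of 30199 gene names and 39429 probes on the array. They were followed in whole colon tissue on 4 single-colour Agilent expression arrays, in a design that crosses loss of Pla2g10 with colitis. Pla2g10 codes for the group X member of the secreted phospholipases A2, which cut phospholipids outside cells and free their fatty acids. The KO DSS group was Pla2g10 -/- mice (X-KO in the labels) given 1% (w/v) dextran sulfate sodium (DSS) in the drinking water up to day 7, an agent that damages the epithelium of the colon and causes inflammation. The KO naive group was untreated Pla2g10 -/- mice, the WT DSS group was wildtype (+/+) mice given the same DSS, and the WT naive group was untreated wildtype mice. All mice were C57BL/6 males, 9 weeks old by the sample tags and 8 weeks old by the growth protocol, and the age and sex tags appear to have been swapped. Each group was 1 array with a pool of colon RNA from 3 mice, so the spread between mice was not measured. The sources used here do not say how the knockout allele was made or whether littermates served as wildtype.

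C-type lectin domains are folds that bind sugars, often with the help of calcium, although many members bind proteins or lipids instead. On macrophages, monocytes, dendritic cells and neutrophils, receptors such as Dectin-1 (Clec7a) and Dectin-2 (Clec4n) recognise fungal and bacterial cell walls and signal through the kinase Syk and the adaptor Card9. Other members carry inhibitory motifs, serve as ligands of natural killer cell receptors, bind platelets to podoplanin, or are secreted. Many mouse Clec genes lie in 2 clusters on chromosome 6. In the colon these receptors are known mostly for sensing gut fungi and bacteria, and Clec2 proteins of the Clr group are known from gut epithelium.

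The promoters of 4 genes that were higher with DSS are shown with those of Clec2h and Clec2e, which were not. Clec2h and Clec2e lie in the same chromosome 6 cluster as Clec7a, and the other 3 genes lie in another cluster. The genes shown were picked by their DSS ratios. The sequences are RefSeq's, on build GRCm38.p6, in windows of 300 bases that end shortly after the start of the gene. They are written 5′ to 3′ along the gene, from chr6:129472730-129473029 (minus strand) for Clec7a, chr6:122921598-122921897 (plus strand) for Clec4a1 and chr6:122952265-122952564 (plus strand) for Clec4a3. The windows of the others are chr6:123049712-123050011 (plus strand) for Clec4b1, chr6:128662135-128662434 (plus strand) for Clec2h and chr6:129100854-129101153 (minus strand) for Clec2e. Capitals mark matches, on either strand, to GAGGAA (the core bound by PU.1 and other Ets factors, PU.1 being a main regulator of myeloid cells), TGANTCA (AP-1) or TTGCNNAA (C/EBP).
Clec7a: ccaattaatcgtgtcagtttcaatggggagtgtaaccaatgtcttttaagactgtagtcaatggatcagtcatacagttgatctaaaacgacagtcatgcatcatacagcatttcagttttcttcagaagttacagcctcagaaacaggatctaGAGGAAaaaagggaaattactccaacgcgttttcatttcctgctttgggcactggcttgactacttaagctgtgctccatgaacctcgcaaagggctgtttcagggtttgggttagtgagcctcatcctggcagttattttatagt
Clec4a1: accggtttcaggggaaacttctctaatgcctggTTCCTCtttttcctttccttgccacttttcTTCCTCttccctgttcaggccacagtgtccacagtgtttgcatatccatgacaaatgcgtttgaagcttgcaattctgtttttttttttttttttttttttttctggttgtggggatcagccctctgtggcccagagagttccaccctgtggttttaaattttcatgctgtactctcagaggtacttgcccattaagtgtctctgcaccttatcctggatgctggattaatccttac
Clec4a3: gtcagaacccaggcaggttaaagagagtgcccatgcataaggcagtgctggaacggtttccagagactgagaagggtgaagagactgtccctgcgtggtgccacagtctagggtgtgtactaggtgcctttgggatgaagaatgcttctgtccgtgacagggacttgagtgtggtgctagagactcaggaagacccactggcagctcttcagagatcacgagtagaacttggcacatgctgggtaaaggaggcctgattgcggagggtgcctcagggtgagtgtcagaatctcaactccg
Clec4b1: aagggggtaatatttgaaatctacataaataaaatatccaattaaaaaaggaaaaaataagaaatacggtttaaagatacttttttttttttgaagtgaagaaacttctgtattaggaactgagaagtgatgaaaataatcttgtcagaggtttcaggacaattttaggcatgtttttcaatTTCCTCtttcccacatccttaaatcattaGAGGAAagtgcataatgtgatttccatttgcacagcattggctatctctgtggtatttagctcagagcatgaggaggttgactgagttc
Clec2h: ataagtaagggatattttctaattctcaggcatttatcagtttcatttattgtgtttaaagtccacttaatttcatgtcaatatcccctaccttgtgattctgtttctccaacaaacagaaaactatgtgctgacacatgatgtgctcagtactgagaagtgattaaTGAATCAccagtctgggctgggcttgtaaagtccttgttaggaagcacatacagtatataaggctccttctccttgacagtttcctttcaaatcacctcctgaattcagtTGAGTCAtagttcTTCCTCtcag
Clec2e: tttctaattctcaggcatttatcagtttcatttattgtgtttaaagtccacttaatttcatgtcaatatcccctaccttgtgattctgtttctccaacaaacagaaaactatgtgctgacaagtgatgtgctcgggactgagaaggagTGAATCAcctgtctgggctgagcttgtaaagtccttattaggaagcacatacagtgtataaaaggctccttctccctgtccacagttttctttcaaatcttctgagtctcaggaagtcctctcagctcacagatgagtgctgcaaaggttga
GAGGAA stood in the windows of Clec7a (1 match), Clec4a1 (2 matches), Clec4b1 (2 matches) and Clec2h (1 match). Clec4a3 had no match to any of the 3 motifs. TGANTCA stood in the windows of Clec2h (2 matches) and Clec2e (1 match). Of the 22 Clec genes with a window in the RefSeq table, 11 held GAGGAA, 6 held TGANTCA and 3 held TTGCNNAA. Those with GAGGAA included Clec5a, Clec12a and Clec4b2, whose signal was not above background on any array. They also included Clec11a, which stayed within 2-fold with DSS. Over all 32851 promoters in that table, 28.3% held GAGGAA, 7.81% held TGANTCA and 10.8% held TTGCNNAA. The windows of Clec2h and Clec2e had 182 of 300 bases in common at the best ungapped offset. A match is a run of letters in a window, and binding of any factor was not measured.

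Levels are given as relative signal, the scanner's processed signal divided by the 75th percentile of that signal over the array. A probe counted as above background where the scanner software had flagged it as well above background. On this measure 22 of the 29 Clec genes were above background on at least 1 array and 16 were above it on all 4. The number above background was 17 in the KO DSS pool, 17 in the KO naive pool, 18 in the WT DSS pool and 20 in the WT naive pool. The 7 genes above background on no array were Clec2g, Clec3a, Clec4a2, Clec4a4, Clec4b2, Clec5a and Clec12a. Clec5a encodes a myeloid receptor that pairs with the adaptor DAP12, and Clec12a an inhibitory myeloid receptor for uric acid crystals. Signals of different probes depend on the probe as well as the RNA, so levels were compared between pools and not between genes. The plot of relative signal by pool shows the 22 genes.

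**Figure D1:**
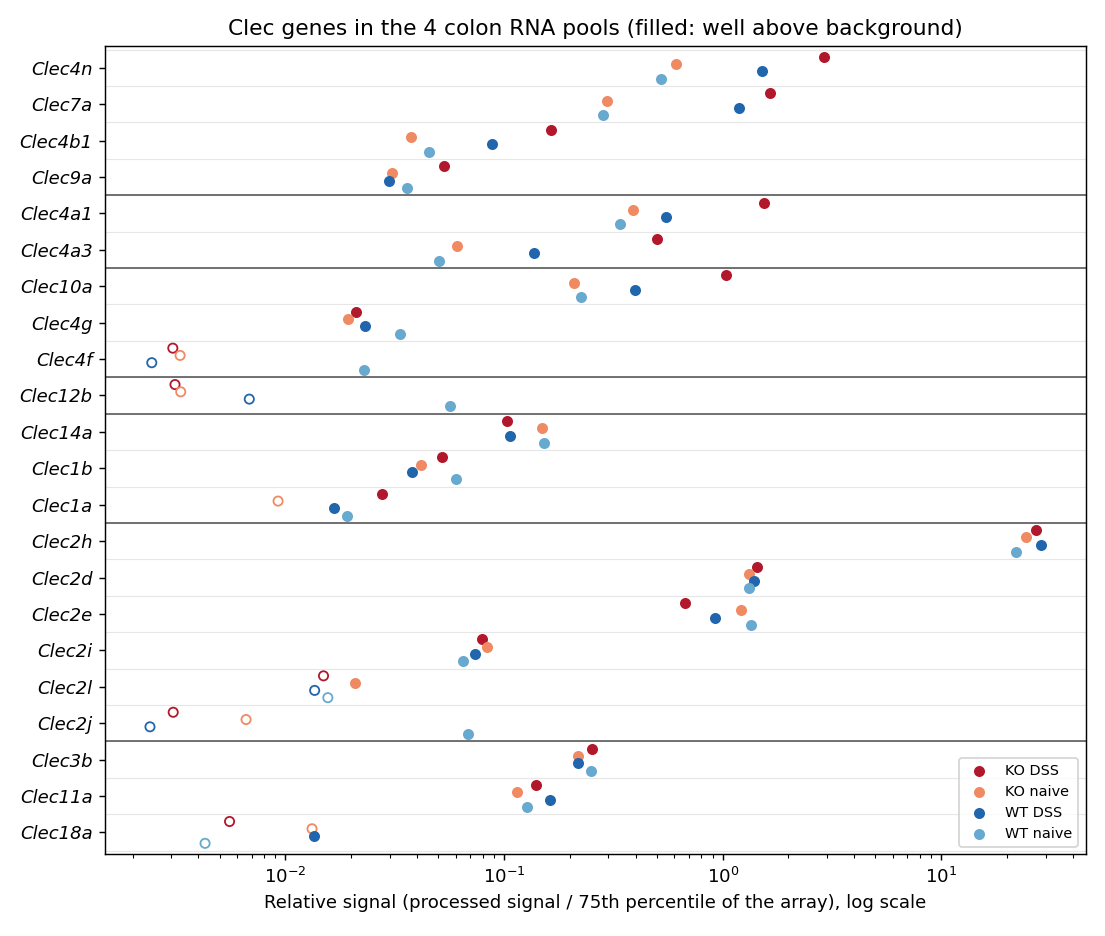
Relative signal (processed signal over the 75th percentile of the array, log axis) of the 22 Clec genes above background on at least 1 array, 1 point per RNA pool and no replicate arrays; filled points are well above background, open points are not, and lines separate the groups by role. Clec4n, Clec7a, Clec4b1, Clec4a1, Clec4a3 and Clec10a have their highest point in the KO DSS pool and their next highest in the WT DSS pool, whereas Clec2h (22.0 to 28.6) and Clec2d (1.31 to 1.43) lie close together in all pools.

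The labels were first checked on the targeted gene. Pla2g10 had a relative signal of 0.997 in the KO DSS pool and 1.70 in the KO naive pool, against 19.1 in the WT DSS pool and 15.9 in the WT naive pool. Its log2 ratio of KO over WT was -4.26 with DSS and -3.23 in naive mice, in the direction of the labels. All 10 colon epithelium markers were above background on every array, and their summed relative signal was 337 (KO DSS), 471 (KO naive), 408 (WT DSS) and 397 (WT naive). The DSS pools stood apart from the naive pools in markers of tissues outside the gut wall. Pancreatic acinar markers summed to 5.88 (KO DSS), 0.156 (KO naive), 22.8 (WT DSS) and 0.165 (WT naive), and adipocyte markers to 27.6 (KO DSS), 4.57 (KO naive), 27.1 (WT DSS) and 4.23 (WT naive). Their part in the ratios below was not tested. No spot was saturated, and 67.7% to 70.4% of spots were well above background on each array. Probes printed several times on an array had a pooled SD of 0.0553 to 0.0593 (log2) above a relative signal of 0.3, 0.0974 to 0.134 between 0.03 and 0.3, and 0.162 to 0.274 under 0.03. These SDs cover the array alone and not the mice. Ratios between 2 arrays are therefore given without a test, with 2-fold as the size that counts.

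With DSS, 6 Clec genes of myeloid cells were at least 2-fold higher than in naive colon in KO mice, and 3 of these 6 were in WT mice. In KO mice, Clec7a, Clec4n, Clec4b1, Clec4a1, Clec4a3 and Clec10a were 4.00 to 8.22-fold higher in the DSS pool than in the naive pool, and no Clec gene was 2-fold lower. In WT mice, Clec7a, Clec4n and Clec4a3 were 2.73 to 4.20-fold higher, and Clec2j, Clec4f and Clec12b were lower than in the naive pool by at least 2.02-fold. The 6 higher genes in KO mice were among 22 Clec genes above background on at least 1 array, where 5.67% of all 22190 such genes on the array were 2-fold higher and 5.02% were 2-fold lower. For the WT pair, with 3 Clec genes higher and 3 lower, the shares over all genes were 3.4% and 5.23%. Among the 16 Clec genes above background on all 4 arrays, 6 were higher in the KO pair and 3 in the WT pair, with none lower in either, and the shares over all 19349 such genes were 4.71% higher and 4.19% lower in the KO pair and 2.53% higher and 4.04% lower in the WT pair. The median log2 ratio of these 16 genes was 0.31 in the KO pair (range -0.85 to 3.04, 13 of 16 above 0) and 0.26 in the WT pair (range -0.66 to 2.07, 10 of 16 above 0). The medians over all 19349 genes were -0.12 in the KO pair and -0.02 in the WT pair. In bulk tissue, more cells of a type and more RNA per cell cannot be told apart.

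Of the activating receptors, Clec7a encodes Dectin-1, the receptor for fungal beta-glucan, which signals through Syk by a motif in its own tail. Its 1 probe lies on chromosome 6 at 129411739 to 129411798 (mm9, minus strand) and is named Clec7a by the array, with an accession that was not matched in the RefSeq table. Clec7a had a relative signal of 1.65 in the KO DSS pool, 0.297 in the KO naive pool, 1.19 in the WT DSS pool and 0.283 in the WT naive pool. Both DSS pools were above both naive pools. The DSS ratio was 5.55-fold (log2 2.47) in KO mice and 4.20-fold (log2 2.07) in WT mice, and KO stood over WT by 1.39-fold with DSS and 1.05-fold in naive mice. Clec7a was thus the Clec gene with the highest DSS ratio in WT mice, and its DSS ratios in KO and WT mice differed by 0.40 on the log2 scale.

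Clec4n encodes Dectin-2, which binds fungal mannans and signals through the Fc receptor gamma chain (Fcer1g). Its relative signal was 2.90 in the KO DSS pool, 0.609 in the KO naive pool, 1.51 in the WT DSS pool and 0.521 in the WT naive pool. Both DSS pools were again above both naive pools, by 4.76-fold (log2 2.25) in KO mice and 2.89-fold (log2 1.53) in WT mice. KO stood over WT by 1.93-fold with DSS and by 1.17-fold in naive mice.

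Clec4b1, of the DCAR group of receptors that also couple to the Fc receptor gamma chain, had a relative signal of 0.164 in the KO DSS pool, 0.0376 in the KO naive pool, 0.0878 in the WT DSS pool and 0.0451 in the WT naive pool. The DSS pool was 4.37-fold higher in KO mice (log2 2.13) and 1.95-fold higher in WT mice (log2 0.96), just under the 2-fold mark. A second Clec4b1 probe was not well above background on any array. Clec9a encodes DNGR-1, which dendritic cells use to detect dead cells. Its relative signal was 0.0529 in the KO DSS pool, 0.0307 in the KO naive pool, 0.0299 in the WT DSS pool and 0.0360 in the WT naive pool. Its DSS ratio was 1.72-fold higher in KO mice and 1.21-fold lower in WT mice, both within 2-fold. The median log2 DSS ratio over these 4 activating receptors was 2.19 in KO mice and 1.25 in WT mice.

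The DCIR group is named after the dendritic cell immunoreceptor, whose best known member carries an inhibitory motif. Of its 4 genes, Clec4a1 (DCIR4) and Clec4a3 (DCIR3) were above background, and Clec4a2 and Clec4a4 were not. Clec4a3 had a relative signal of 0.503 in the KO DSS pool, 0.0612 in the KO naive pool, 0.138 in the WT DSS pool and 0.0504 in the WT naive pool. The KO DSS pool stood well apart, since its DSS ratio of 8.22-fold (log2 3.04) was the highest of any Clec gene, against 2.73-fold (log2 1.45) in WT mice. Clec4a1 had a relative signal of 1.55 in the KO DSS pool, 0.388 in the KO naive pool, 0.553 in the WT DSS pool and 0.340 in the WT naive pool. Its DSS ratio was 4.00-fold (log2 2.0) in KO mice and 1.63-fold (log2 0.70) in WT mice.

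Among the receptors that take up glycoproteins, Clec10a encodes MGL1 (CD301a), which binds galactose and N-acetylgalactosamine on macrophages and dendritic cells. Its probe lies on chromosome 11 at 69984254 to 69984313 (mm9, plus strand), apart from the chromosome 6 clusters. Clec10a had a relative signal of 1.03 in the KO DSS pool, 0.210 in the KO naive pool, 0.398 in the WT DSS pool and 0.225 in the WT naive pool. The DSS pool was 4.91-fold higher in KO mice (log2 2.29) and 1.77-fold higher in WT mice (log2 0.82). Clec4g encodes LSECtin, a receptor of sinusoidal endothelium in liver and lymph node. Its relative signal was 0.0211 in the KO DSS pool, 0.0192 in the KO naive pool, 0.0231 in the WT DSS pool and 0.0335 in the WT naive pool, within 2-fold in all pairs. Clec4f, a galactose receptor of Kupffer cells in the liver, was well above background only in the WT naive pool and is described with Clec12b and Clec2j.

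**Figure D2:**
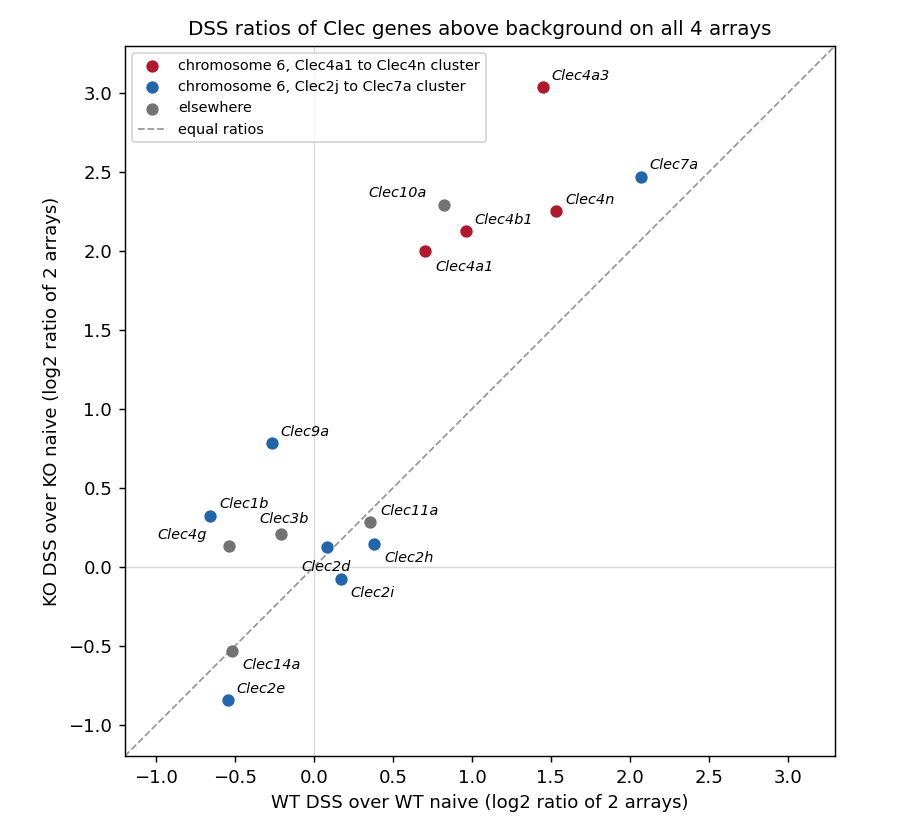
Log2 ratio of the DSS pool over the naive pool in KO mice (vertical axis) against the same ratio in WT mice (horizontal axis) for the 16 Clec genes above background on all 4 arrays, 1 point per gene, each ratio from 2 arrays, coloured by chromosome 6 cluster. The 6 genes at or above 2.0 in KO mice all lie above the dashed line of equal ratios, and Clec7a (2.47 in KO, 2.07 in WT) lies closest to it of the 6. These genes were picked by the ratio on the vertical axis, which by itself favours a place above the line.

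The Clr group was different: 4 of its 7 genes were above background on all 4 arrays and none of these 4 passed 2-fold in any pair. Clr proteins are ligands of the NKR-P1 receptors on natural killer cells. Clec2h encodes Clr-f, a ligand made by gut epithelium, and had a relative signal of 27.0 in the KO DSS pool, 24.4 in the KO naive pool, 28.6 in the WT DSS pool and 22.0 in the WT naive pool. Its DSS ratio was 1.11-fold in KO mice and 1.30-fold in WT mice. Clec2d, the Clr-b gene, whose product holds back natural killer cells through Klrb1b, had a relative signal of 1.43 in the KO DSS pool, 1.31 in the KO naive pool, 1.40 in the WT DSS pool and 1.32 in the WT naive pool. The pools lay close together for both genes.

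Clec2e, the Clr-a gene, was the one of these 4 with lower signal in both DSS pools than in both naive pools. It had a relative signal of 0.675 in the KO DSS pool, 1.21 in the KO naive pool, 0.921 in the WT DSS pool and 1.35 in the WT naive pool. Its DSS ratio was 1.80-fold lower in KO mice (log2 -0.85) and 1.46-fold lower in WT mice (log2 -0.55), both within 2-fold. Clec2i, the Clr-g gene, had 0.0796 in the KO DSS pool, 0.0838 in the KO naive pool, 0.0734 in the WT DSS pool and 0.0652 in the WT naive pool, and so varied little. The median log2 DSS ratio of the 4 genes was 0.03 in KO mice and 0.13 in WT mice. Clec2l was well above background only in the KO naive pool, at 0.0208. Clec2j, a pseudogene in RefSeq, is described below.

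Among receptors of endothelium and platelets, Clec14a encodes an endothelial protein that binds the matrix protein Mmrn2. Its probe at 59368573 to 59368632 on chromosome 12 (mm9, minus strand) had a relative signal of 0.103 in the KO DSS pool, 0.149 in the KO naive pool, 0.106 in the WT DSS pool and 0.152 in the WT naive pool. The DSS pools were lower by 1.45-fold in KO and 1.44-fold in WT mice, within the 2-fold mark. A second Clec14a probe was well above background only in the KO naive pool, at 0.0280.

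Clec1b encodes CLEC-2, the platelet receptor for podoplanin (Pdpn), and its 3 probes differed. The probe above background on all arrays had a relative signal of 0.0522 in the KO DSS pool, 0.0416 in the KO naive pool, 0.0381 in the WT DSS pool and 0.0601 in the WT naive pool. By it the DSS ratio was 1.25-fold higher in KO mice and 1.58-fold lower in WT mice. The other probes were well above background only in the KO DSS pool, at 0.0216 and 0.0270, which is at least 1.40-fold and 1.75-fold above the KO naive pool and at least 1.91-fold and 2.38-fold above the WT DSS pool. A bound of this kind sets the signal of the brighter pool against the lowest signal well above background on the dimmer array, or against the dim signal itself where that was higher. Neither of these 2 probes was well above background in the WT pools, so they give no DSS ratio in WT mice.

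Clec1a, an endothelial receptor that also recognises fungal melanin, had a relative signal of 0.0277 in the KO DSS pool, 0.00925 (not well above background) in the KO naive pool, 0.0167 in the WT DSS pool and 0.0192 in the WT naive pool. The KO DSS pool was at least 1.80-fold above the KO naive pool.

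Of the secreted members, Clec3b encodes tetranectin, a plasminogen-binding protein, and Clec11a a growth factor for bone and blood stem cells. Clec3b had a relative signal of 0.251 in the KO DSS pool, 0.218 in the KO naive pool, 0.217 in the WT DSS pool and 0.250 in the WT naive pool. Clec11a had 0.140 in the KO DSS pool, 0.115 in the KO naive pool, 0.163 in the WT DSS pool and 0.128 in the WT naive pool. Both genes stayed within 1.5-fold in every pair. Clec18a was well above background only in the WT DSS pool and only by its brightest probe, at 0.0136. That probe read 0.0132 in the KO naive pool, not well above background there. The other Clec18a probes were not well above background on any array.

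The 3 Clec genes that were lower in the WT DSS pool were well above background in the WT naive pool alone. They entered the counts through that array only, so in a pair with it they could only be called lower. Clec12b, an inhibitory receptor, read 0.00313 in the KO DSS pool, 0.00332 in the KO naive pool and 0.00683 in the WT DSS pool, against 0.0567 in the WT naive pool. Clec2j read 0.00307 in the KO DSS pool, 0.00661 in the KO naive pool and 0.0024 in the WT DSS pool, against 0.0685 in the WT naive pool. Clec4f read 0.00305 in the KO DSS pool, 0.0033 in the KO naive pool and 0.00245 in the WT DSS pool, against 0.0229 in the WT naive pool. The WT naive pool was thus apart from the 3 others, whose values lay in the background of their arrays. Clec12b and Clec2j were at least 5.01-fold (Clec12b) and 6.05-fold (Clec2j) lower in the WT DSS pool, and Clec4f was at least 2.02-fold lower. When the background was corrected by normexp and arrays were then quantile-normalized, the log2 ratio of WT DSS over WT naive was -1.21 for Clec12b, -1.45 for Clec2j and -0.53 for Clec4f, and Clec4f also fell short of 2-fold with median scaling (-0.87) and quantile normalization (-0.86). Compared with the WT naive pool, Clec12b was at least 3.68-fold and Clec2j at least 4.45-fold lower in the KO naive pool, with log2 ratios of -1.13 for Clec12b and -1.33 for Clec2j under normexp and quantile normalization. A second Clec12b probe was not well above background on any array. Across the array, 283 probes were well above background in the WT naive pool alone, 364 in the KO DSS pool alone, 366 in the KO naive pool alone and 818 in the WT DSS pool alone, together 1831 of 39429 probes.

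By the positions of their probes (mm9), 22 of the 29 genes lie on chromosome 6, most of them in 2 clusters when probes less than 1 Mb apart are counted together. The cluster of Clec4a1, Clec4a3, Clec4a4, Clec4b1, Clec4a2, Clec4b2 and Clec4n spanned 122884578 to 123197028. All 4 of its genes that were above background were 2-fold higher with DSS in KO mice, and 2 of them (Clec4a3 and Clec4n) in WT mice. The cluster running from Clec2j at 128602442 to Clec7a at 129411798 held 12 genes, of which 10 were above background on at least 1 array. In this cluster Clec7a was the 1 gene 2-fold higher with DSS in each genotype, and 2 genes (Clec12b and Clec2j) were lower in WT mice. Over all genes above background on at least 1 array, 5.67% were higher with DSS in KO mice. In WT mice 3.4% of all such genes were higher and 5.23% lower. Whether the clusters differ was not tested. No 2 probes of different Clec genes matched each other at more than 30 of 60 bases without gaps. Probes were not compared with the transcripts of other Clec genes, so binding of a probe to RNA of a related gene was not tested.

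Between genotypes in naive colon, the Clec genes differed little. None was 2-fold higher in the KO naive pool than in the WT naive pool, and 2 were lower (Clec12b and Clec2j), where 1.13% of all genes were higher and 1.04% lower. Both were above background in the WT naive pool alone, so in this pair they could only be called lower. The same WT naive reading entered their ratio in the WT pair, so the calls in the 2 pairs are not independent. Among the 16 genes above background on all arrays, none passed 2-fold in either direction, where 0.512% of all such genes were higher and 0.279% lower. Their log2 ratios ran from -0.80 (Clec4g) to 0.36 (Clec2i), and their median was -0.06 against 0.02 over all genes. The 6 genes with high DSS ratios in KO mice lay between -0.26 (Clec4b1) and 0.28 (Clec4a3).

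With DSS, Clec4a3 was 3.66-fold higher in the KO DSS pool than in the WT DSS pool (log2 1.87), Clec4a1 2.80-fold higher (log2 1.49) and Clec10a 2.59-fold higher (log2 1.37). These were the 3 Clec genes past 2-fold in this pair, and none was 2-fold lower, where 5.09% of all genes were higher and 2.2% lower. Clec4n (log2 0.95), Clec4b1 (log2 0.90) and Clec9a (log2 0.82) came next, and Clec2e had the lowest ratio, at log2 -0.45. All 3 are among the 16 genes above background on all arrays, where the shares over all such genes were 3.81% higher and 1.28% lower. The median log2 ratio of the 16 genes was 0.33 (11 of 16 above 0), against -0.08 over all genes. This pair shares the KO DSS array with the KO pair above, so a high value on that 1 array raises both ratios. On the log2 scale, the DSS ratio in KO mice exceeded that in WT mice by 1.59 for Clec4a3, 1.47 for Clec10a and 1.30 for Clec4a1. The difference was 1.17 for Clec4b1, 0.72 for Clec4n and 0.40 for Clec7a. These genes were picked by their KO ratio, which by itself favours a difference above 0. With 1 array per group, the difference between genotypes in the response to DSS could not be tested.

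**Figure D3:**
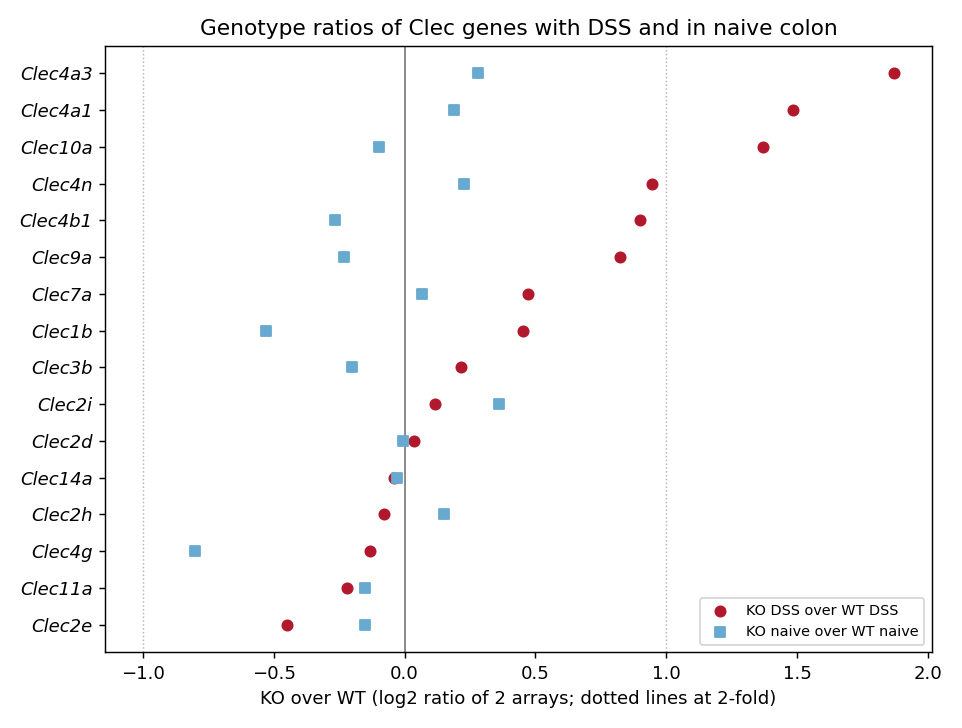
Log2 ratio of KO over WT with DSS (red circles) and in naive colon (blue squares) for the 16 Clec genes above background on all 4 arrays, 1 ratio of 2 arrays per point, with dotted lines at 2-fold. Clec4a3 (1.87), Clec4a1 (1.49) and Clec10a (1.37) lie beyond 2-fold with DSS, and all blue squares lie between -0.80 and 0.36.

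The mean DSS effect over both genotypes and the mean genotype effect over both treatments could be tested, with limma and an additive fit that leaves 1 residual degree of freedom. That degree of freedom is the difference between the DSS ratios of KO and WT mice. The SEs and p-values of this fit thus measure how far the 2 ratios differ, moderated over all genes. They do not measure the spread between mice or between replicate arrays. For the mean DSS effect, no Clec gene, and none of the 22190 genes (0.0%), had an adjusted p under 0.05. At an unadjusted p under 0.05 there were 8 Clec genes of 22, where the share over all genes was 18.5%. The mean log2 DSS effect was 2.27 ± 0.19 for Clec7a (SE, limma adjusted p = 0.201) and 1.89 ± 0.26 for Clec4n (adjusted p = 0.209). It was 2.24 ± 0.47 for Clec4a3 (adjusted p = 0.224), 1.54 ± 0.36 for Clec4b1 (adjusted p = 0.233) and 1.56 ± 0.44 for Clec10a (adjusted p = 0.247). Clec4a1 had 1.35 ± 0.40 (adjusted p = 0.252). Clec2e, at -0.70 ± 0.18 (adjusted p = 0.237), and Clec14a, at -0.53 ± 0.16 (adjusted p = 0.256), were the lower ones among the 8.

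The call depended on which genes entered the fit and on how the variance was modelled. When the fit held only the 19349 genes above background on all arrays, 5.74% of genes passed, among them Clec7a (limma adjusted p = 0.00843), Clec4n (0.0188), Clec4a3 (0.0336) and Clec4b1 (0.043). With a variance trend and robust estimation, 6.92% of genes passed, among them Clec7a (limma adjusted p = 0.000947), Clec4n (0.00847), Clec2e (0.0397, lower with DSS) and Clec4b1 (0.0479). For the mean genotype effect in the fit of all 22190 genes, no Clec gene passed at an adjusted or an unadjusted p of 0.05. Over all genes 0 of 22190 (0.0%) passed the adjusted and 3.84% the unadjusted threshold by limma. With the variance trend and robust estimation 0.0315% of all genes passed for genotype, none of them a Clec gene. At an unadjusted limma p under 0.05 there were 2 of 22 Clec genes in that fit, where 1006 of 22190 genes passed. In the fit of genes above background on all arrays there were 3 of 16, where 1015 of 19349 genes passed.

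Most markers of the myeloid cells that carry these receptors were also higher with DSS. For the counts in this list and those below, the shares over all 22190 genes serve as the measure. In KO mice 5.67% were 2-fold higher and 5.02% lower with DSS, and in WT mice 3.4% were higher and 5.23% lower. In the KO DSS pool 5.09% were higher than in the WT DSS pool. Of 12 monocyte and macrophage markers, all above background on every array, 10 were 2-fold higher with DSS in KO mice and 6 in WT mice, and 7 were higher in the KO DSS than in the WT DSS pool. Their median log2 DSS ratio was 1.88 in KO and 0.94 in WT mice, and their summed relative signal was 47.2 (KO DSS), 26.3 (KO naive), 32.6 (WT DSS) and 25.4 (WT naive). Ccr2, the receptor that draws monocytes from blood, had log2 DSS ratios of 3.33 in KO and 1.87 in WT mice, and Lyz2, lysozyme of myeloid cells, had 2.44 in KO and 1.19 in WT mice. Mertk, a receptor for dying cells on macrophages, had -0.69 in KO and -0.95 in WT mice, and Itgam, the integrin chain CD11b, had -0.19 in KO and -0.02 in WT mice. In WT mice, the log2 DSS ratios of Clec7a (2.07), Clec4n (1.53) and Clec4a3 (1.45) lay above the median of these markers. Clec4b1 (0.96) lay close to it, and Clec10a (0.82) and Clec4a1 (0.70) lay under it. In KO mice all 6 lay above the median. They had been picked by their KO ratio and the markers had not, so the KO values cannot show a difference from the markers. The part of these cells in the Clec ratios was not tested.

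Lists for other cell types also differed between the pools. Of 9 dendritic cell markers above background, 4 were 2-fold higher with DSS in KO and 2 in WT mice, and Xcr1, a defining marker of the dendritic cells that use Clec9a, was not above background on any array. The median log2 DSS ratio of these 9 genes was 0.86 in KO mice (8 of 9 above 0) and 0.41 in WT mice (6 of 9 above 0). Summed dendritic cell signal was 46.3 (KO DSS), 48.7 (KO naive), 41.2 (WT DSS) and 43.2 (WT naive), most of it from Siglech, at 32.4 (KO DSS), 40.9 (KO naive), 28.5 (WT DSS) and 35.9 (WT naive). Of 11 neutrophil markers above background, 7 were higher in each genotype, with summed signals of 72.1 (KO DSS), 42.9 (KO naive), 32.7 (WT DSS) and 35.4 (WT naive), and Ngp was not above background. The largest single share of these sums was Csf3r, at 29.1 (KO DSS), 39.3 (KO naive), 19.97 (WT DSS) and 32.4 (WT naive). S100a9, a calprotectin subunit, was 88.4-fold higher with DSS in KO mice and 72.5-fold higher in WT mice, and Retnlg was at least 179-fold higher in KO and 18.3-fold higher in WT mice. Beside Clec14a and Clec1a, 9 endothelium markers had 4 genes 2-fold higher with DSS in KO mice and none in WT mice, with summed signals of 6.56 (KO DSS), 5.55 (KO naive), 5.76 (WT DSS) and 5.73 (WT naive). Beside Clec1b, 7 platelet markers above background had 4 genes higher in KO mice and none in WT mice, with sums of 10.6 (KO DSS), 4.20 (KO naive), 6.41 (WT DSS) and 5.09 (WT naive), and Itga2b and Gp5 were not above background. The 4 erythrocyte markers above background summed to 24.0 (KO DSS), 2.60 (KO naive), 7.51 (WT DSS) and 3.35 (WT naive), with median log2 DSS ratios of 3.41 in KO and 1.13 in WT mice. Beside Clec4f and Clec4g, 5 liver markers above background summed to 3.73 (KO DSS), 2.22 (KO naive), 2.56 (WT DSS) and 2.49 (WT naive), with Apoa1 below background. These liver markers were split, with 1 higher and 2 lower with DSS in KO mice, and 1 higher and 1 lower in WT mice. Cyp2e1, at 3.07 in the KO DSS pool, was 9.62-fold higher with DSS in KO and 5.22-fold higher in WT mice. Ttr was 4.10-fold lower in KO and 2.46-fold lower in WT mice. Of 8 natural killer and T cell markers above background, whose cells carry the receptors of Clr proteins, 2 were higher with DSS in KO mice, and 1 was higher and 1 lower in WT mice. Their summed signals were 3.94 (KO DSS), 2.43 (KO naive), 3.12 (WT DSS) and 2.46 (WT naive), and Ncr1 and Klrk1 were not above background. The part of all these cells in the Clec ratios was not tested.

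The RNA signals of genes whose proteins pass on the signals of Clec receptors were mostly level between pools. Of 20 adaptors and kinases, 3 were 2-fold higher with DSS in KO mice and none lower, and 2 were higher and 1 lower in WT mice. The shares over all genes were 5.67% higher in KO mice, and 3.4% higher and 5.23% lower in WT mice. The median log2 DSS ratio of the adaptors and kinases was 0.06 in KO and 0.02 in WT mice. The 3 higher genes in KO mice were the adaptors Fcer1g and Tyrobp, which receptors without a signalling motif of their own need at the cell surface, and the kinase Lyn. Fcer1g, the Fc receptor gamma chain, had log2 DSS ratios of 2.46 in KO and 1.41 in WT mice, and Tyrobp, the adaptor DAP12, had 2.70 in KO and 1.53 in WT mice. Both were also 2-fold higher in the KO DSS than in the WT DSS pool, at log2 1.16 for Fcer1g and 1.09 for Tyrobp. Lyn, of the Src family, had 1.09 in KO and 0.53 in WT mice, and Traf6 had -1.51 in WT mice. Syk itself had log2 DSS ratios of 0.17 in KO and 0.48 in WT mice. Card9 was well above background only in the WT DSS pool, at 0.0238, and was at least 1.68-fold lower in the KO DSS pool. Of 7 phosphatases and inhibitors of this signalling, none passed 2-fold in any pair.

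Target cytokines of Dectin and Mincle signalling were higher with DSS. Of 9 above background, 7 were 2-fold higher in KO mice, and 6 were higher and 1 lower in WT mice. Il1b had log2 DSS ratios of 5.85 in KO and 5.35 in WT mice, and Tnf had 3.48 in KO and 2.74 in WT mice. Il10 and Il23a were not above background on any array. Many other signals drive these genes in colitis, so the list is not specific to Clec receptors.

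Among the binding partners of Clec proteins, 11 genes were above background, 5 were 2-fold higher with DSS in KO mice and 1 in WT mice. Pdpn, the ligand of Clec1b, had log2 DSS ratios of 2.37 in KO and 1.33 in WT mice. Klrb1b, the inhibitory receptor for the product of Clec2d, had 1.62 in KO and -0.04 in WT mice, beside 0.13 in KO and 0.08 in WT mice for Clec2d itself. Of 23 C-type lectin receptors that are not named Clec and were above background, 11 were higher and 1 lower with DSS in KO mice, and 1 was higher and 1 lower in WT mice. Cd209a, of the DC-SIGN family, had log2 DSS ratios of 1.79 in KO and 1.17 in WT mice, and Mrc1, the macrophage mannose receptor, had 1.52 in KO and 0.22 in WT mice. The median log2 DSS ratio over the 16 such genes above background on all arrays was 0.98 in KO and 0.23 in WT mice.

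**Figure D4:**
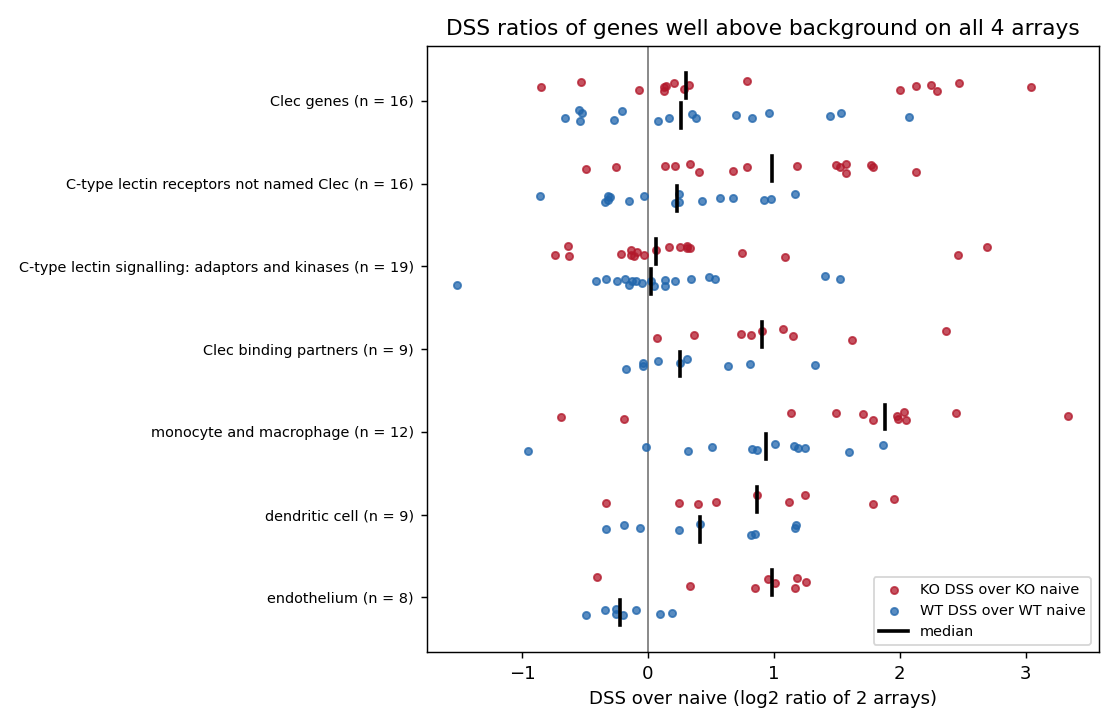
Log2 ratio of the DSS pool over the naive pool for genes above background on all 4 arrays, in the Clec family and in related gene lists, with KO mice in red above WT mice in blue and a black bar at each median; 1 point is 1 gene on 2 arrays. The Clec genes split into 6 high points (2.0 to 3.04) and 10 between -0.85 and 0.78 in KO mice, and monocyte and macrophage markers have medians of 1.88 in KO and 0.94 in WT mice.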

How the data were processed

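Gene expression in colon was measured on 4 Agilent 4x44K mouse arrays, 1 per combination of genotype and DSS, each with Cy3-labelled RNA from 200 ng of total RNA, per the labels' protocols. The deposited scanner tables hold, per the file headers, the background-subtracted processed intensity and the well-above-background flag of each spot from Agilent Feature Extraction 11.5.1.1, with probe positions on mm9. The deposited series table holds the authors' normalized signal. It equals the processed intensity divided by 1 constant per array, close to the 75th percentile, so its scale is known and it carries no log or centring. Per the file headers the 4 arrays share a slide and a scan date.

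Control spots and outlier spots (129 to 136 per array) were left out. Repeat spots were averaged, intensities were divided by the 75th percentile of the array and turned to log2, and each gene was represented by its probe with the highest mean among those well above background on at least 1 array. A signal not well above background was raised to the lowest well-above-background signal of its array (0.0113 to 0.0165) where it lay under it, and otherwise kept, to give bounds. Calls use 2-fold. The mean effects were fitted with limma 3.58.1 in R 4.3.3 on 22190 genes, with Benjamini-Hochberg adjustment over all of them. The fit was also run on simulated data in which every changed gene had a purely additive effect. That run could not show whether the additive model holds for these arrays. The precision is limited by the number of arrays. Alternatives were median and quantile scaling, normexp background (offset 50), the series table, no bounds, an all-array filter, mean of probes, 1.5-fold, and variance trend with robust estimation.

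Signals are given for each Clec gene past 2-fold in a pair or with probes that differ, and for the others by counts, ranges and examples. From each gene list up to 4 genes with large ratios are named, and others of the pathway beside them as examples. The members and lists were chosen with earlier results of these data known. For 27 of the 29 genes the probe accession matched the same RefSeq symbol, and Clec7a and Clec2j, whose probe accessions had no match in that table, keep the array's own gene name. Exon and UTR annotation of the probes was not used here.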

Additional observations from a re-analysis of the deposited data

How the results depend on the processing

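Of 596 values of single Clec genes recomputed under the alternatives, none changed sign after a call, 574 moved by less than 0.388 (log2), the largest technical spread of a ratio, and 22 moved further. With the mean of all kept probes, KO DSS over KO naive was 1.77 for Clec1b and -1.06 for Clec14a (log2), past 2-fold, both resting in part on signals not well above background. In the KO DSS over KO naive pair the count stayed within 1.5 times its value of 6. In the WT DSS over WT naive pair the 6 genes became 3 with probes above background on all arrays, where the lower genes cannot enter, and 10 with a 1.5-fold threshold. In that pair 3 genes were higher and 3 lower, against 4 higher and 2 lower with median or quantile scaling and 3 higher and 2 lower with normexp, and median scaling placed the all-gene median at 0.12 in place of -0.02 (log2). In the KO naive over WT naive pair the 2 genes became 4 without bounds and 0 with probes above background on all arrays. In the KO DSS over WT DSS pair the 3 genes became 7 at 1.5-fold. Shares over all genes at 1.5-fold or without bounds are not given here. The counts at those settings therefore cannot be set against the array as a whole. For the mean DSS effect by limma, 0 Clec genes passed, against 4 with probes above background on all arrays and 4 with a variance trend and robust estimation. For the mean genotype effect 0 passed under all alternatives run. No paired analysis was possible because each group is 1 array and the labels give no replicate number shared between groups. Leaving out a replicate was not possible for the same reason. Signals under a relative signal of about 0.03 have the widest spread between repeat probes, which limits Clec1a, Clec4g, Clec4f, Clec2l and Clec18a.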
